A study of Mus musculus with 83 samples.

Results

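The genes described here encode the subunits of the RNA polymerases of the mouse cell. They were all genes of the count tables named Polr1, Polr2 or Polr3 followed by letters, and Polrmt, with Polr2a left out. There were 28 of them, out of 27752 genes in the tables of C64 cells and 55367 in those of B8 cells. The values are counts of Pol II CUT&Tag reads over each whole gene. CUT&Tag uses an antibody, here to the C-terminal domain of Rpb1, to bring a transposase to its target, which cuts and tags the DNA around it. The counts therefore measure Pol II on the subunit genes, all of which Pol II itself transcribes, and neither their RNA nor their protein.

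The series holds 83 samples, of which the 24 Pol II libraries fall into 12 groups of 2. C64 is a clone of the mouse embryonic stem cell line JM8.N4 in which both copies of the TATA-binding protein (TBP) carry a degron tag (mAID). Through this tag, indole-3-acetic acid (IAA, 500 µM) depletes TBP. The study states that the degradation is incomplete, so that a part of the TBP protein remains. B8 is a clone of C64 with a complete knock-out of Tbpl1, which encodes TRF2, a paralog of TBP, and the cells of both lines also carry H3.3-GFP. By the study's list of cell lines, C64, and so B8, also has a HaloTag at the C-terminus of Rpb1, the protein that the antibody binds. In run 2, C64 cells were left as controls, given IAA for 6 h, heat-shocked at 42 °C for 30 min, or heat-shocked after IAA. In run 3, C64 cells were left as controls, given IAA for 16 h, given retinoic acid for 16 h, or given both. The labels put the retinoic acid at 25 µM, and the study's methods give a lower concentration. B8 cells were left as controls or given IAA for 6 h, in runs 6 and 8. Controls are called untreated in the labels and DMSO-treated in the methods. The cells were grown on gelatin without feeders.

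RNA polymerase I (Pol I) makes the large ribosomal RNA precursor, RNA polymerase II (Pol II) makes messenger RNAs, and RNA polymerase III (Pol III) makes transfer RNAs and other small RNAs. Each has its own pair of large catalytic subunits and its own peripheral subunits, while a group of small subunits is shared by all of them and a heterodimer, encoded by Polr1c and Polr1d, is shared by Pol I and Pol III. TBP takes part in initiation by all of these nuclear polymerases, and Polrmt encodes the separate polymerase of mitochondria.

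Reads assigned to genes numbered 3854622 to 5056322 in a C64 library, 900651 to 1157308 in B8 run 6 and 2330887 to 2523832 in B8 run 8. The 28 subunit genes together took 1009 to 8600 of them. Of 10 embryonic stem cell markers, 9 stood above the median of all tested genes in C64 per kb of gene, and Sox2 had 0 counted reads in every library. Reads that lie over several genes were counted for none of them, and their part in this 0 was not tested. Gata4, Gata6, Sox17 and Foxa2 of 5 primitive endoderm markers also stood above that median, as did Mixl1, Eomes and Tbx6 of 4 mesoderm markers. So did Pax6 and Neurog2 of 4 neuroectoderm markers and Col1a1 of 6 fibroblast markers. This measure alone therefore does not set the stem cell list apart. Among B8 controls, the library numbered 2 in run 6 stood apart. Its Pearson correlation of log2 CPM with the others was 0.942 to 0.952, against 0.969 to 0.983 among the others, across genes. In no group were the 2 libraries copies of each other, since they differed by a chi-square of 1.36 to 14.9 per gene. The study calls its replicates biological, while the labels do not name separate cultures, and p-values measure the spread between these libraries only. In such bulk libraries, fewer cells with Pol II on a gene and less Pol II per cell cannot be told apart.

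The promoters of the genes on which the results turn are shown first. The windows run from 250 bases before to 50 bases after the start that RefSeq gives on GRCm38.p6, 5′ to 3′ on the gene's strand, and 22 of the 28 genes had one. Polr1c (chr17:46247996-46248295, minus strand) and Polr3b (chr10:84622048-84622347, plus strand) passed the threshold in the test itself. Polr1d (chr5:147077096-147077395, plus strand) and Polr2f (chr15:79141075-79141374, plus strand) passed it in a fit with paired libraries. Capitals mark the ETS core CCGGAA on either strand, and in Polr1c also the GC box GGGCGG, which lies there on the reverse strand.
Polr1c: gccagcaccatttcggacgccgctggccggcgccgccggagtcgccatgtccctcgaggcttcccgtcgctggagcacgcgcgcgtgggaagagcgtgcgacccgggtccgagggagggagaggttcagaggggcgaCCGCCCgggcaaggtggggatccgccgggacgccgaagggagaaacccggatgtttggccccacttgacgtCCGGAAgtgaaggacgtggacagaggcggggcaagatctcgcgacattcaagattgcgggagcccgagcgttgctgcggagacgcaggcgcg
Polr1d: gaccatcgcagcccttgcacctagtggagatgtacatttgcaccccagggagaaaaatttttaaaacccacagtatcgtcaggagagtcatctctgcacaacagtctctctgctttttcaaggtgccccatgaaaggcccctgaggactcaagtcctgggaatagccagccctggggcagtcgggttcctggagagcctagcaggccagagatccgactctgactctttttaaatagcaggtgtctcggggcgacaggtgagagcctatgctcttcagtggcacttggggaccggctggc
Polr2f: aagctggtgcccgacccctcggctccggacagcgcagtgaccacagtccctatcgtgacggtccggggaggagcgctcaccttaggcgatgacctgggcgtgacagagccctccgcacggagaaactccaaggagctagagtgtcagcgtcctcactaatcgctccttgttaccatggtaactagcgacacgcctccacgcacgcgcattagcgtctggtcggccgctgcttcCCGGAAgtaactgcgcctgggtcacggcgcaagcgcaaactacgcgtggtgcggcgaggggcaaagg
Polr3b: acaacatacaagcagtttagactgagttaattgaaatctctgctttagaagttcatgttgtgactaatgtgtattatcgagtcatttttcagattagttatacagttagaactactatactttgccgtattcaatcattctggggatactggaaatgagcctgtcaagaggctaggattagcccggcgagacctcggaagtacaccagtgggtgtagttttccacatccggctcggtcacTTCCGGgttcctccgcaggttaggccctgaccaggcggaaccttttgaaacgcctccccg

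The ETS core began 42 bases before the start in Polr1c, 17 before it in Polr2f and 10 before it in Polr3b, and the window of Polr1d had none of the motifs searched. The windows of Polr1d and Polr2f lie inside the counted genes, which start at 147077050 and 79141009. Bases before those starts were not searched. Over the 24 windows of the subunit genes, 12 (50%) held CCGGAA on either strand, against 14.9% of all 32851 windows. GGGCGG, the GC box, was in 58.3% of them against 35.7%, and GCGCATG, a form of the NRF1 site, was in 16.7% against 3.91%. CCAAT was in 29.2% against 37.4%. TATAAA was in the windows of Polr2c and Polrmt, 8.33% against 13.6%. GAANNTTC, a pair of heat shock element units, was in those of Polr2b and Polr2m, 8.33% against 7.86%. None of these strings contains another, although GAANNTTC can begin in the last letters of CCGGAA. A match describes the letters of a window and is not shown to be a bound site. By the deposited TATA and TATA-less lists, Polr1a, Polr2k, Polr3a and Polr3d (14.3% of 28) were on the TATA list, against 18.6% of all genes of the C64 tables, and 23 of 28 were on the TATA-less list.

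Pol II was higher on Polr1c than on any other subunit gene in untreated C64 cells. Levels are CPM, the reads of a gene relative to its library's size after edgeR's TMM scaling, and between genes they are compared only per kb of gene length. Polr1c, whose product belongs to both Pol I and Pol III, is a gene of 4135 bp on chromosome 17 (46243920 to 46248054, GRCm38). It had 20.4 ± 4.99 CPM per kb (SD, n = 4 controls), more than 99.1% of the 17873 genes tested over all conditions. The 4 libraries lay between 13.1 and 24.1 CPM per kb, above every library of the next gene. That gene was Polr2i, which encodes a small zinc-binding subunit of Pol II, with 5.98 ± 1.73 CPM per kb, followed by Polr2j, the Pol II counterpart of Polr1d, with 4.95 ± 1.07. From Polr2i down to Polr2k, the range of each gene's libraries overlapped that of the next except between Polr3gl and Polr2k, so the order among those neighbours is not resolved.

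The lowest levels were those of Polr2k (0.550 ± 0.177 CPM per kb), a zinc-binding subunit of all of the nuclear polymerases, of Polr3gl (0.966 ± 0.183) and of Polr3k (0.993 ± 0.218). Polr2k had 1 to 22 reads in each library and did not pass the filter on low counts in any comparison. The median of all 28 subunit genes was 2.24 CPM per kb, against 1.14 for the 17873 tested genes. By role, the median was 4.32 for the genes of Pol I alone (n = 3), 2.26 for Pol II alone (n = 7), 2.05 for Pol III alone (n = 10) and 2.12 for the subunits of all nuclear polymerases (n = 5). Polrmt had 1.56 ± 0.121 CPM per kb. The paralogs Polr3g and Polr3gl, which encode alternative forms of a subunit of Pol III, had 1.15 ± 0.115 and 0.966 ± 0.183, with overlapping libraries. Counting gave reads that lie over several genes to neither of them. This touches 13 of the genes, and 6 share at least 10% of their length with another gene. Polr2c shares 60.4% with Dok4, so its level per kb is a low estimate. To a smaller extent this also holds for Polr2i (22.5% with Tbcb) and Polr3gl (17.1% with Gm16253). It holds too for Polr1e (12.9% with Fbxo10) and Polr2j (11.2% with Gm43604). The levels, among them those of Polr3g and Polr3gl, were not corrected for it.

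**Figure D1:**
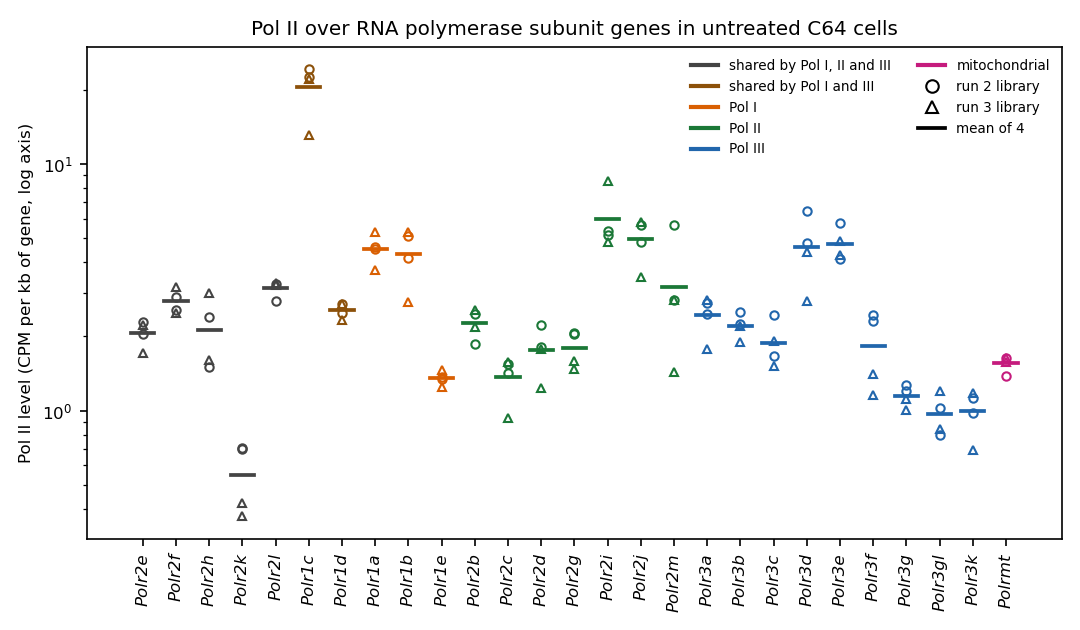
Pol II level of the subunit genes reported by name, in untreated C64 cells, in CPM per kb of gene on a log axis. Points are the 4 control libraries (circles run 2, triangles run 3), bars their mean, colours the polymerase. Polr1c lies above all others, with a mean of 20.4, and Polr2k is lowest at 0.550.

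Heat shock lowered Pol II on Polr1c, in cells without IAA and in cells whose TBP had been depleted with IAA. In C64 controls of run 2, Polr1c had 99.8 and 92.5 CPM, and after heat shock 21.6 and 48.3. In IAA-treated cells it had 96.4 and 97.1 CPM, and after IAA and heat shock 20.7 and 37.5. Both heat-shocked libraries lay below every unshocked one in each comparison. The log2 fold change was -1.45 ± 0.29 (SE), or 2.74-fold lower, with an adjusted p of 0.0116 in edgeR's quasi-likelihood test. In IAA-treated cells it was -1.73 ± 0.27, or 3.32-fold lower, with an adjusted p of 0.011. These comparisons share no library. The heat shock effects with and without IAA differed by -0.25 ± 0.46, an interaction that did not pass the threshold for any of 27 subunit genes or of 16961 genes (0% called, 0 subunit genes at an unadjusted p under 0.05, and 0 in the likelihood-ratio test and in DESeq2). Without the library called heat shock a, which had 21.6 CPM, the log2 change was -0.997, and without heat shock b it was -2.17, both past the threshold. With no filter on low counts the adjusted p was 0.06 in C64. The summed CPM of the embryonic stem cell markers was 1288 to 1507 in controls and 2319 to 2437 after heat shock, and their part in the result was not tested.

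Polr1c was the subunit gene called among the 27 tested, in cells without IAA, where 3.02% of 16332 genes were called, and again among 27 tested in IAA-treated cells, where 1.4% of 16486 were. At an unadjusted p under 0.05 there were 6 and 7 of the 27, where 16.0% and 16.6% of all genes tested had one. The median log2 fold change of the subunit genes was -0.07 against 0.03 for all genes without IAA, and -0.06 against 0.02 with it. Of the 27 genes, 12 had a value below 0 in both comparisons and 7 a value above 0 in both. The share of all genes with the same direction in both was not counted. Among the 12 were Polr1a, Polr1b, Polr1c, Polr1d, Polr1e, Polr2b, Polr2l, Polr3a, Polr3b, Polr3f and Polr3g, which include each gene of Pol I alone and both genes of the heterodimer shared by Pol I and Pol III. The 7 were Polr2c, Polr2d, Polr2e, Polr2f, Polr2g, Polr2h and Polr2j, which are genes of Pol II or of all nuclear polymerases.

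The libraries of run 2 fall into a and b by their column names, and libraries of the same letter deviated together (correlations of 0.109 to 0.502 in 6 pairs of groups), so each fit was repeated with this pairing as a block. With the block 8.41% of all genes were called in C64 and 9.76% in IAA-treated cells, and 2 and 5 of 27 subunit genes. Polr1c was called in both, with -1.53 (adjusted p 4.14e-08) and -1.78 (1.41e-10). The others are described next by role, each with its value without the block.

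Among the small subunits of all nuclear polymerases, Polr2f had 27.6 and 30.99 CPM in controls and 61.0 and 32.01 after heat shock, then 28.0 and 21.1 with IAA and 50.8 and 33.5 with IAA and heat shock. Both shocked libraries were higher than the unshocked ones in each comparison, although heat shock b exceeded control b only narrowly. In IAA-treated cells the log2 change was 0.79 ± 0.27 (adjusted p 0.156), and 0.77 with an adjusted p of 0.0246 in the block. Polr2e had 8.79 and 7.85 CPM in controls against 14.99 and 13.99 after heat shock, and 12.7 and 8.83 with IAA against 15.2 and 17.1 with IAA and heat shock. These groups did not overlap, but the changes of 0.81 ± 0.36 (adjusted p 0.264) and 0.58 ± 0.32 (0.375) did not pass the threshold. Polr2l had values of -0.02 ± 0.39 and -0.26 ± 0.44.

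Polr1d, the partner of Polr1c in the heterodimer, had 93.1 and 86.0 CPM in controls and 49.6 and 68.9 after heat shock. With IAA it had 82.8 and 86.6, and with IAA and heat shock 39.7 and 55.0. The shocked libraries were lower in each comparison, as for Polr1c. The log2 changes were -0.59 ± 0.23 (adjusted p 0.211) and -0.84 ± 0.24 (0.0928). In the block, the value of -0.85 in IAA-treated cells had an adjusted p of 0.00615, and that of -0.60 in C64 one of 0.0845. Among the genes of Pol I alone, Polr1a and Polr1b encode the catalytic subunits. Polr1a had log2 values of -0.30 ± 0.24 and -0.55 ± 0.31, and Polr1b had -0.35 ± 0.22 and -0.44 ± 0.23, none past the threshold. The Pol I subunit gene Polr1e was near 0 in both, with -0.04 and -0.06.

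Among the genes of Pol II alone, Polr2b encodes the second-largest subunit, which forms the catalytic centre together with Rpb1. It had 96.1 and 73.2 CPM in controls against 52.2 and 71.4 after heat shock, and 79.3 and 87.2 with IAA against 46.3 and 56.2 with both. The value within IAA-treated cells was -0.70 ± 0.23 (adjusted p 0.138, and 0.0318 in the block), and without IAA it was -0.44 ± 0.24 (0.393). The shocked libraries were lower in each comparison, heat shock b only narrowly. The other 6 genes of Pol II alone did not pass the threshold in either fit. Their values ran from -0.00 for Polr2m to 0.35 for Polr2j without IAA, and from -0.77 for Polr2i to 0.67 for Polr2g with it.

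Polr3b, the gene of the second-largest subunit of Pol III, spans 104887 bp on chromosome 10 (84622292 to 84727178). It had 262.3 and 235.2 CPM in controls against 145.5 and 174.2 after heat shock, and 235.5 and 241.0 with IAA against 130.1 and 154.6 with both. The shocked libraries were lower in each comparison, and the log2 changes were -0.62 ± 0.22 (adjusted p 0.162) and -0.74 ± 0.25 (0.148, and 0.0249 in the block). Polr3f, whose product belongs to the subcomplex of Pol III that opens the promoter, had 34.7 and 32.9 CPM in controls and 21.2 and 16.5 after heat shock. With IAA it had 28.4 and 29.9, and with both 17.5 and 17.9. The shocked libraries were again lower. The log2 changes were -0.82 ± 0.28 (adjusted p 0.133, and 0.0351 in the block) and -0.71 ± 0.25 (0.168). Of the 10 genes of Pol III alone, 9 had values below 0 without IAA and 6 with it. Polr3g and Polr3gl had -0.26 ± 0.24 and -0.28 ± 0.34 without IAA, and -0.25 ± 0.27 and 0.05 ± 0.29 with it. The mitochondrial polymerase gene Polrmt had 0.26 ± 0.31 and -0.04 ± 0.33.

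**Figure D2:**
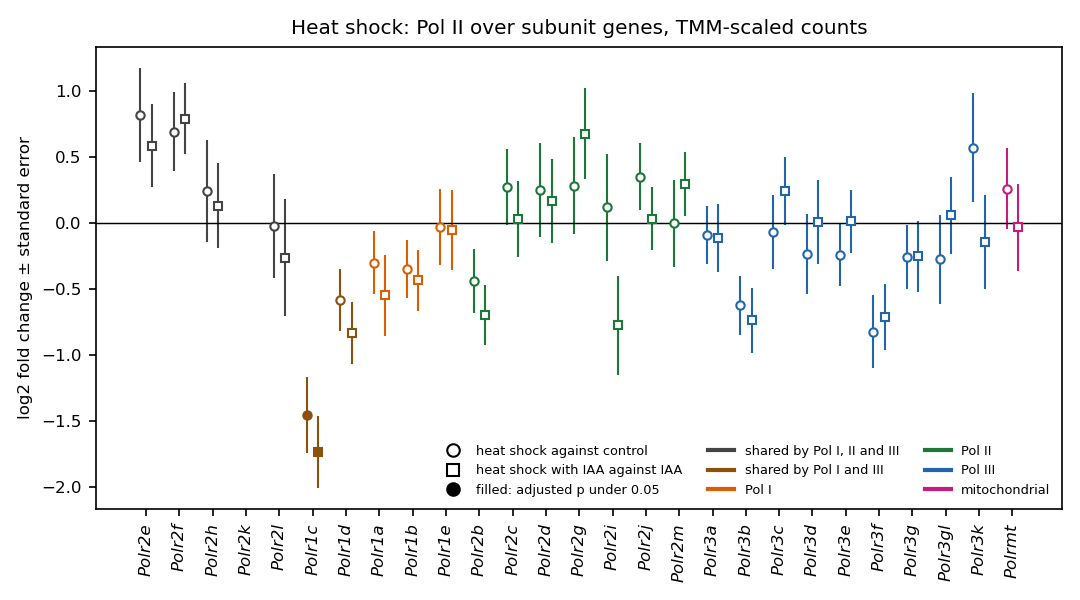
Log2 fold change of Pol II over the subunit genes reported by name after heat shock, with its standard error, against unshocked cells without IAA (circles) and with IAA (squares). Filled symbols have an adjusted p under 0.05, which holds for Polr1c in both comparisons at -1.45 and -1.73. Polr2k was not tested.

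The values were also set against gene length, a choice made after they were seen, with the subunit genes split at their median length of 12522 bp. Without IAA, 13 of 14 longer genes had values below 0, with a median of -0.29, while the 11818 longer genes of the whole table had a median of 0.01 and 48.6% below 0. Of 13 shorter genes, 9 had values above 0, with a median of 0.25 against 0.08 for 4514 shorter genes, of which 42.7% were below 0. With IAA, 10 of 14 longer genes were below 0, with a median of -0.34 against 0.00, and 8 of 13 shorter ones above 0, with a median of 0.03, which was below the 0.06 of all shorter genes. With retinoic acid 10 of 14 longer genes were below 0 (median -0.11 against 0.04) and 7 of 13 shorter ones above 0. Of all genes, 45.2% of the longer and 55.2% of the shorter were below 0. With retinoic acid in IAA-treated cells the counts were 11 of 14 (-0.17 against 0.03) and 10 of 13 (0.10 against 0.03). There 45.1% of all longer and 46.6% of all shorter genes were below 0. With IAA for 6 h, 9 of 14 longer genes were below 0 in C64 and 9 of 14 in B8, against 48.3% and 57.8% of all longer genes. The medians were -0.06 against 0.01 and -0.03 against -0.05. Polr1c, at 4135 bp, is short and had the largest drop, so length does not order all of them. Long genes hold more reads per library, and the part of read depth in this split was not tested.

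**Figure D3:**
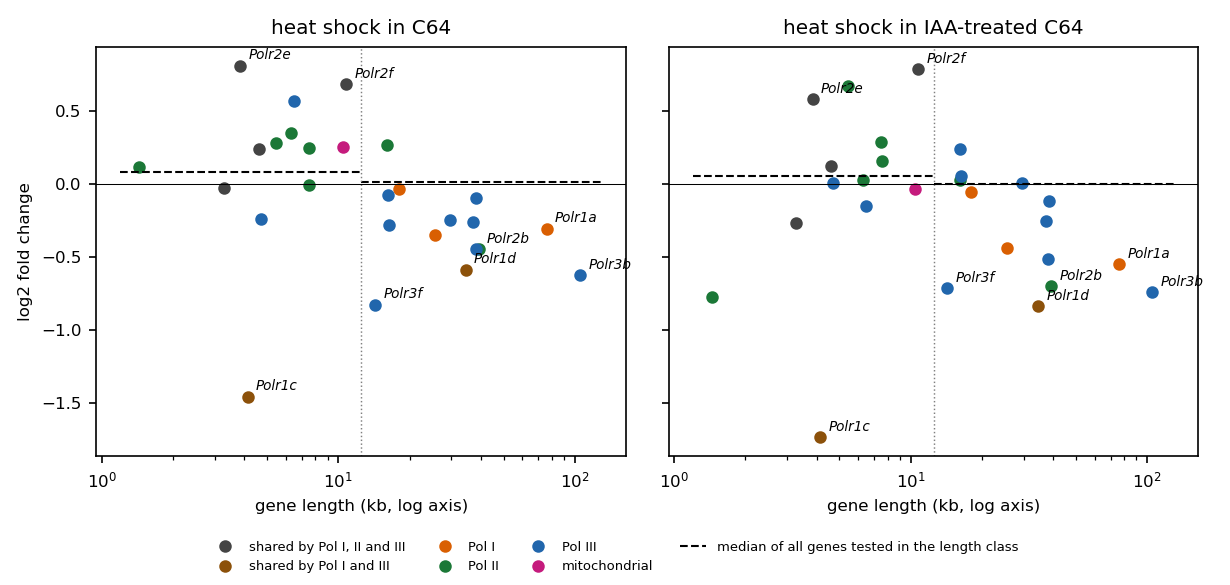
Log2 fold change after heat shock against gene length in kb (log axis), without IAA (left) and with IAA (right), coloured by polymerase. The dotted line marks the median length, and dashed lines the median of all tested genes in each length class. Longer subunit genes lie mostly below 0, with medians of -0.29 and -0.34, and Polr1c is the short gene at the bottom.

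IAA, which depletes TBP without removing all of it, changed Pol II on no subunit gene past the threshold in C64. At 6 h of IAA, 0 of 27 subunit genes were called, against 0.0433% of 16157 genes. At 16 h it was 0 of 27, against 0% of 16349. In heat-shocked and in retinoic acid-treated cells it was 0 of 27 each, against 0% of 16628 and of 16439. The likelihood-ratio test and DESeq2 called 0 subunit genes in each of these 4 comparisons too. At 6 h, DESeq2 gave 9 of the 27 no adjusted p and so could not call them. At an unadjusted p under 0.05 in the quasi-likelihood test there were 0, 0, 0 and 1, against 2.19, 1.95, 0.962 and 0.633% of all genes. The subunit genes with the smallest p were Polr3c at 6 h (-0.45 ± 0.24), Polr3f at 16 h (0.54 ± 0.26), Polr3gl in heat-shocked cells (0.45 ± 0.31) and Polr3gl in retinoic acid-treated cells (0.77 ± 0.29), with adjusted p of 0.999 to 1. In fits that block on the pairing, 1.19, 2.16, 0.65 and 1.04% of all genes were called in these comparisons, in that order, and again 0 subunit genes. The comparisons at 6 h and at 16 h, and those within heat-shocked and within retinoic acid-treated cells, use different libraries.

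Polr3c, whose product sits beside that of Polr3f in Pol III, had 39.4 and 27.0 CPM in controls of run 2 and 27.7 and 20.7 after 6 h of IAA, with overlapping groups. Polr3f had 20.1 and 16.6 CPM in controls of run 3 and 29.5 and 23.1 after 16 h, where the groups did not overlap. In run 2 the same gene had 34.7 and 32.9 in controls and 28.4 and 29.9 after 6 h, the other direction. Polr3gl had 12.6 and 10.99 CPM with retinoic acid and 19.9 and 20.1 with retinoic acid and IAA, again without overlap, against 13.8 and 19.5 and then 17.6 and 16.1 without retinoic acid. The retinoic acid by IAA interaction of Polr3gl was 0.74 ± 0.38, and 0 of 27 subunit genes or of 17032 genes passed (0% called; 0 subunit genes at an unadjusted p under 0.05, and 0 in both other tools).

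In a fit over all 24 libraries, with the 6 contexts as blocks, 0 of 27 subunit genes were called, against 0.806% of 17873 genes. The likelihood-ratio test and DESeq2 called 0, but DESeq2 gave 9 of the 27 no adjusted p and so could not call them. 1 subunit gene had an unadjusted p under 0.05 in the quasi-likelihood test, against 9.98% of all genes. That gene was Polr3b, with -0.25 ± 0.11 and an adjusted p of 0.382. With the pairing of runs 2 and 3 added as blocks, 2.58% of all genes and 0 subunit genes were called. The values ran from -0.25 for Polr3b to 0.26 for Polr2i, and the 95% interval lay within a 2-fold change in either direction for all 27 (100%), against 97.6% of all genes. TMM scaling takes out any shift common to the whole table, so these bounds are relative to the rest of the genome. Of the 22 genes tested in each of the 5 pairwise IAA comparisons, Polr2c had a value below 0 in every one. No gene had a value above 0 in every one, and the share of all genes with 1 direction throughout was not counted. For the largest subunit of Pol I the value over all contexts was -0.13 (Polr1a), and for the heterodimer of Pol I and Pol III -0.12 (Polr1c) and -0.11 (Polr1d). The TATA-list genes Polr1a, Polr3a and Polr3d did not pass it either.

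In B8 cells, which lack TRF2, IAA lowered Pol II on Polr3b. In run 6 the controls had 190.5 and 130.9 CPM and the IAA libraries 105.1 and 105.8. In run 8 the controls had 264.5 and 257.2 and the IAA libraries 143.5 and 148.0. In each run both IAA libraries lay below both controls. With run as a block the log2 change was -0.72 ± 0.12, or 1.65-fold lower, with an adjusted p of 0.00309. Within run 8 alone it was -0.79 (3.63e-08), and within run 6 alone -0.65, with an adjusted p of 0.355. Without the run 6 control numbered 2 it was -0.82 (3.15e-08), and with no block for run -0.72 with an adjusted p of 0.244. Polr3b was called among 22 subunit genes tested, where 5.68% of 13675 genes were called, and again with a replicate block, where 3.28% were (-0.71, adjusted p 0.0142). Polr2e, Polr2g, Polr2h, Polr2k, Polr2l and Polr3k did not pass the filter at this depth. In the same libraries the summed CPM of 10 embryonic stem cell markers was 1841 to 1926 in run 8 controls and 1282 to 1443 with IAA, and 1098 to 1552 against 1148 to 1185 in run 6. That of 5 primitive endoderm markers was 135 to 143 in run 8 controls and 178 to 184 with IAA, and 180 to 222 against 240 to 241 in run 6, higher with IAA without overlap in both runs. The part of either list in the result was not tested.

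The other subunit genes in B8 had values from -0.56 for Polr2m to 0.68 for Polr2i. The genes of the largest subunits of Pol I and Pol III had lower values too. Polr1a had 264 and 199 CPM in run 6 controls and 210 and 207 with IAA, then 459 and 423 in run 8 controls and 310 and 311 with IAA. Its groups overlapped in run 6 and not in run 8, and the change was -0.32 ± 0.11 (adjusted p 0.117). Polr3a had -0.36 ± 0.14 (adjusted p 0.157), Polr1c -0.11 ± 0.15 (0.721) and Polr1d -0.03 ± 0.12 (0.937). Without the run 6 control numbered 2, 4 subunit genes were called, against 14% of all genes: Polr3b, Polr1a (-0.42), Polr3a (-0.47) and Polr2i (1.002).

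The Polr3b change in B8 was set against that in C64 at 6 h, where the controls had 262.3 and 235.2 CPM and the IAA libraries 235.5 and 241.0, a change of -0.06 ± 0.14. The difference of the effects was -0.65 ± 0.19, with an adjusted p of 0.248, so a difference between the lines was not established. No subunit gene of 27 passed, against 0.13% of 15338 genes. At an unadjusted p under 0.05 in the quasi-likelihood test there were 2, against 8.40% of all genes. The likelihood-ratio test and DESeq2 called 0, but DESeq2 gave 18 of the 27 no adjusted p and so could not call them. Without the run 6 control numbered 2, the difference was -0.77 with an adjusted p of 0.0113, and 0.756% of all genes passed. The libraries of the 2 lines also carry different run numbers in the labels, so line and run cannot be told apart.

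**Figure D4:**
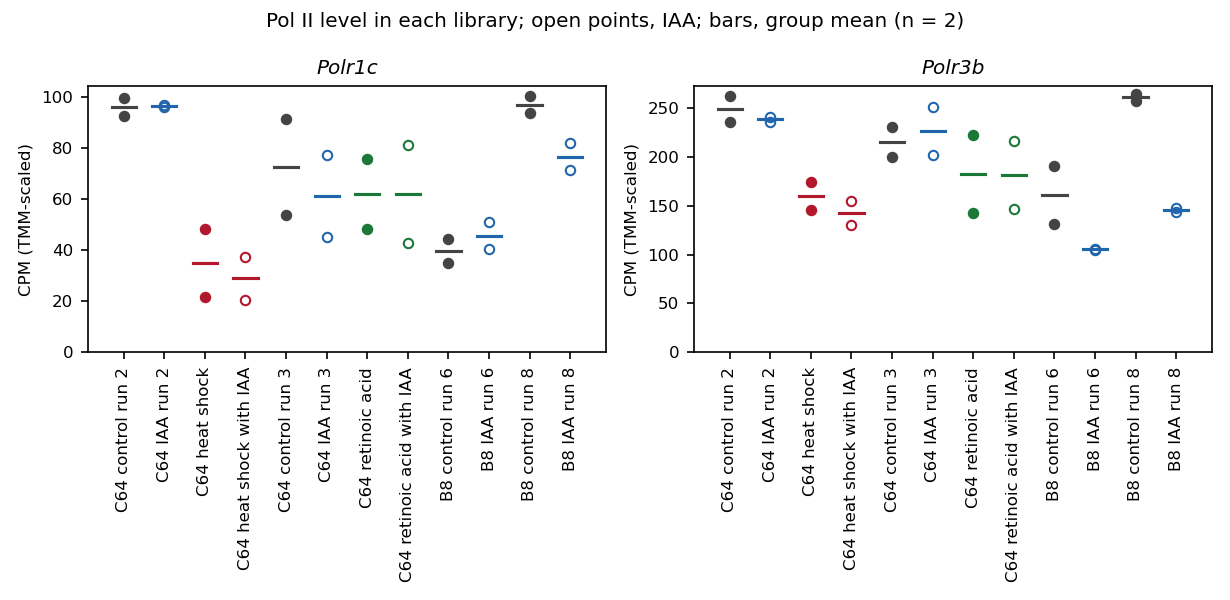
Pol II level of Polr1c (left) and Polr3b (right) in each of the 24 libraries, in TMM-scaled CPM, with bars at the mean of each group of 2. Open points are libraries with IAA, red heat shock, green retinoic acid. Within run 2, Polr1c is lower after heat shock, at 20.7 to 48.3 CPM against 92.5 to 99.8 in the other libraries. Unshocked libraries of other runs reach into that range, such as B8 controls of run 6 at 44.5 and 35.0. Polr3b is lower with IAA than without it in both runs of B8.

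Retinoic acid changed no subunit gene past the threshold in either comparison. In C64 cells 0 of 27 were called, against 0.0183% of 16350 genes, and in IAA-treated cells 0 of 27, against 0% of 16395. At an unadjusted p under 0.05 in the quasi-likelihood test there were 1 and 0, against 6.17% and 3.84% of all genes. The likelihood-ratio test and DESeq2 called 0 in both, but DESeq2 gave 9 and 6 of the 27 no adjusted p and so could not call them. The median was -0.06 against 0.02 for all genes, and -0.05 against 0.03 with IAA. Of the 27 genes, 11 had values below 0 in both comparisons and 8 values above 0 in both. The same share over all genes was not counted. In the same libraries the embryonic stem cell markers summed to 507 to 774 CPM with retinoic acid and to 1142 to 1741 in controls, and to 436 to 595 with retinoic acid and IAA against 786 to 1471 with IAA. The part of this difference between the cells in the subunit genes' values was not tested.

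The smallest p was that of Polr2l, a small zinc-binding subunit of all nuclear polymerases. It had 10.6 and 10.8 CPM in controls and 6.61 and 4.68 with retinoic acid, without overlap. The change was -0.91 ± 0.39, with an adjusted p of 0.806. With IAA it had 12.7 and 3.78 against 12.0 and 7.64, with overlap. In IAA-treated cells the smallest p was that of Polr3d, the gene of a Pol III subunit, with 21.3 and 19.6 CPM with IAA and 14.3 and 10.3 with both, without overlap. The change was -0.74 ± 0.32 (adjusted p 1). Its values without IAA were 20.5 and 13.0 in controls and 13.8 and 12.4 with retinoic acid.

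The replicate numbers paired the libraries of run 3, since same-numbered libraries deviated together (correlations of 0.424 to 0.629 over 6 comparisons between groups). In a fit that blocks on this number, 11.4% of all genes and 1 of 27 subunit genes were called with retinoic acid in C64. That gene was Polr1b, the second-largest subunit of Pol I. It had 135 and 70.6 CPM in controls 1 and 2 and 79.1 and 65.5 with retinoic acid, lower in each pair but with overlapping groups. The change was -0.46 ± 0.13 (adjusted p 0.00878) in the block and -0.51 without it. Without the block, leaving out 1 library moved the value between -0.90 and 0.022, the latter without control 1. With IAA it had 121 and 77.0 against 87.0 and 67.8, at -0.34 in the block (adjusted p 0.477), where 1.82% of all genes and 0 subunit genes were called.

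The 4 B8 controls were compared with the 2 C64 controls of run 2. Of 25 subunit genes tested 0 were called, against 0% of 14622 genes. The likelihood-ratio test and DESeq2 called 0, but DESeq2 gave 15 of the 25 no adjusted p and so could not call them. 1 subunit gene had an unadjusted p under 0.05 in the quasi-likelihood test, against 5.90% of all genes. That gene was Polr3f, at -0.76 ± 0.27 (adjusted p 0.826). It had 34.7 and 32.9 CPM in the C64 controls of run 2 and 18.5, 12.4, 21.5 and 25.7 in B8, without overlap. The C64 controls of run 3, which were not in this fit, had 20.1 and 16.6, within the range of B8. Polr1c had 99.8 and 92.5 CPM in C64 controls of run 2 and 91.5 and 54.0 in those of run 3. B8 controls had 44.5 and 35.0 in run 6 and 100.5 and 93.7 in run 8. The B8 libraries of run 6 lay below all C64 controls, and those of run 8 lay within or just above their range. When run 6 alone stood for B8, 1 subunit gene was called, Polr1c at -1.24, against 3.51% of all genes.

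**Figure D5:**
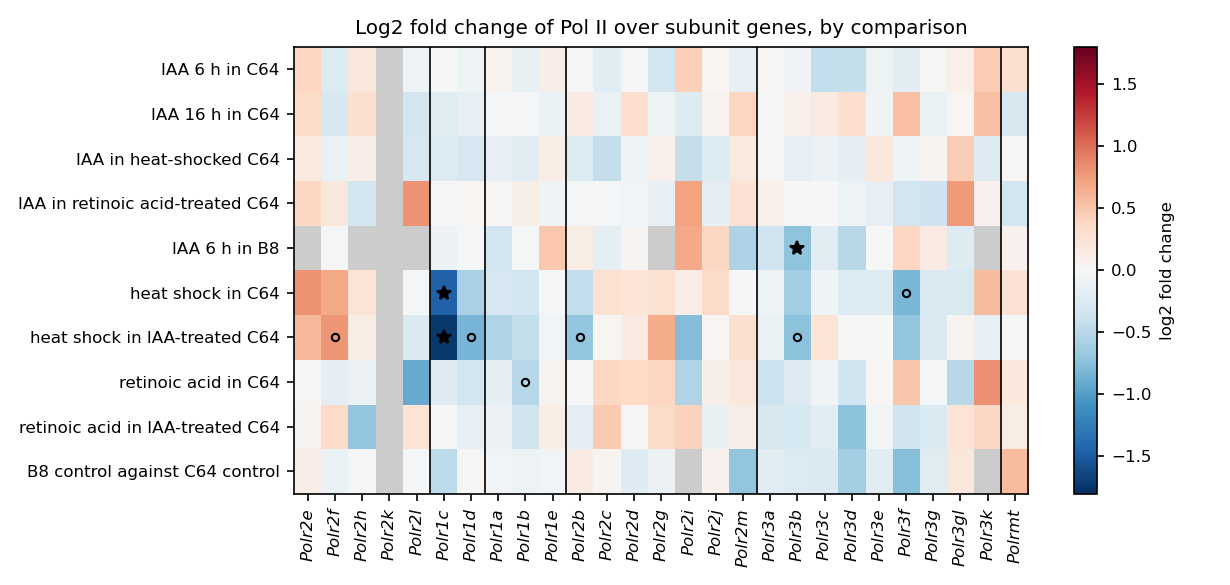
Log2 fold change of Pol II over the subunit genes reported by name (columns, ordered by polymerase, black lines between roles) in each pairwise comparison (rows). Blue is lower, red higher, grey not tested. A star marks an adjusted p under 0.05 and a circle one only in the fit with paired libraries. Stars stand for Polr1c in both heat shock comparisons and for Polr3b with IAA in B8.

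Other genes of the same pathways were read beside the subunits: 58 genes in 4 lists of Pol I subunits under other symbols and Pol I factors, Pol III factors, polymerase assembly and import factors, and mitochondrial transcription factors. Of these, 1 passed the threshold. It was Taf1d, which encodes a subunit of the Pol I promoter factor SL1, with -1.07 ± 0.12 (adjusted p 3.69e-04) with IAA in B8 and -0.77 ± 0.17 (0.0173) with IAA over all contexts. These fits tested 46 and 53 of the listed genes, and they called 5.68% and 0.806% of all genes. In the fits with paired libraries, Taf1d was also lower with IAA in C64. It had -0.67 (adjusted p 3.21e-11) at 6 h and -0.66 (9.64e-07) at 16 h. In heat-shocked cells it had -0.69 (3.76e-06), and in retinoic acid-treated cells -0.57 (6.25e-05). It was the only listed gene called in each of these comparisons, where 1.19, 2.16, 0.65 and 1.04% of all genes were called, in that order. No gene of the lists passed the threshold in the unpaired fits of heat shock, where 52 were tested, or of retinoic acid. Of all genes, 3.02% passed in heat shock without IAA and 1.4% with it, and 0.0183% and 0% with retinoic acid. After heat shock the list of Pol III factors had a median log2 change of -0.26 over 18 genes without IAA and of -0.35 with it, against 0.03 and 0.02 for all genes. The Pol I list had 0.07 and -0.07, the assembly list -0.01 and -0.05, and the mitochondrial list 0.09 and 0.33. In the fits with paired libraries, 5 of the 52 listed genes were called after heat shock in C64, where 8.41% of all genes were, and 6 of 52 in IAA-treated cells, where 9.76% were. Lower in both were Taf1d, the assembly factor gene Rpap2, and the Pol III factor genes Brf1 (a subunit of TFIIIB) and Gtf3c1 (the largest subunit of TFIIIC). Brf1 had -0.72 (adjusted p 0.0249) and -0.82 (0.00938), and Gtf3c1 -0.69 (0.0305) and -1.02 (7.89e-04). Gpn2 was lower in IAA-treated cells. Higher were Snapc4 without IAA (0.96, adjusted p 0.0306) and Brf2 with it (1.10, 0.0157), both Pol III factor genes. With retinoic acid in C64, 7 of 51 listed genes were called in the replicate block, where 11.4% of all genes were. Rrn3, a Pol I initiation factor, was lower at -0.85 (4.37e-08), as were Ubtf, Ttf1, Gtf3a and Rpap1, and Brf2 (1.54) and Snapc2 (0.61) were higher. In IAA-treated cells 1 of 52 was called, Rrn3 at -0.68 (0.0361), where 1.82% of all genes were.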

How the data were processed

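CUT&Tag with an antibody to Pol II gave 24 libraries. Per the file headers and the methods, the authors aligned reads with Bowtie2 to mm10, kept PCR duplicates, subsampled to a fixed number of reads (most in C64, fewest in B8 run 6), and counted them over whole Ensembl release 102 genes with featureCounts 2.0.0, without strand. The deposited values are raw read counts per gene. Reads over several genes were given to none. The deposited lists of TATA and TATA-less genes are other data, used only for membership; the normalization table was not used here.

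All genes of a table were tested with edgeR 4.0.16 (R 4.3.3): TMM scaling, a minimum count of 20 in filterByExpr, the quasi-likelihood test and Benjamini-Hochberg adjustment at 0.05 over all genes. Standard errors are those of the log2 coefficients. Each contrast used its own groups; run was a block in B8. Scripts were tested on simulated data with 200 changed genes. Alternatives were the likelihood-ratio test, DESeq2 1.42.0, other scalings and filters, blocks, and leaving out each library. Same-numbered libraries of run 3 deviated together in all 6 pairs of groups (0.424 to 0.629), as did the column sets of run 2 (0.109 to 0.502), but not those of run 6 (-0.0435) or run 8 (-0.0117). Columns of run 2 carry no replicate number, and those of run 8 are numbered 2 and 3 where the labels say 1 and 2.

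The genes, lists and tests were chosen with earlier results of these data known. Named in full are subunit genes past the threshold in a comparison, the smallest p where none passed, those called only with a block, the 3 highest and 3 lowest levels, and Polr3g and Polr3gl. Promoters and motifs came from RefSeq windows on GRCm38.p6. Others were named after their values were seen (Polr2e, Polr1a, Polr3a and Polr2i in some comparisons). Counts and medians cover all subunit genes, 1 of which is not reported here by name.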

Additional observations from a re-analysis of the deposited data

Results flagged for a closer look

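Of 87 sets of 4 libraries, 4 held a subunit gene level far from the other 3 by Dixon's 95% criterion, a share that chance gives in about 1 of 20. In the C64 controls, Polr2i had 12.3 CPM in control 2 of run 3, against 6.99 to 7.74 in the others, and Polr2l had 9.13 CPM in control b of run 2, against 10.6 to 10.8. In the B8 controls, Polr2i had 16.5 CPM in the run 6 library numbered 2, which also stood apart across all genes, against 5.61 to 7.35. With IAA in B8, Polr1e had 35.9 CPM in the run 8 library numbered 2, against 31.1 to 31.6.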

How the results depend on the processing

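Of 192 recounts of subunit genes called, 176 stayed within 1.5 times the number given in the report and 16 did not. With heat shock in C64 the count was 1; it was 0 with no filter on low counts (Polr1c at an adjusted p of 0.06), 2 with the column set block, and 1 to 5 with 1 library left out (2 without heat shock a, where 5.53% of all genes were called, and 5 without heat shock b, where 15.4% were). In IAA-treated cells it was 1; it was 2 in the likelihood-ratio test and 2 with no filter (Polr1c and Polr1d in both), 5 with the column set block, and 1 to 6 with 1 library left out, 6 without the library b of heat shock with IAA, where 16.3% of all genes were called. With retinoic acid in C64 it was 0, and 1 with the replicate block. For B8 against C64 controls it was 0, and 1 with the B8 controls of run 6 only. With IAA in B8 it was 1; it was 0 with no block for run, 0 within run 6 alone, 4 within run 8 alone (17.97% of all genes), 3 without both libraries numbered 2 in run 6 (15.8%, an alternative chosen after seeing the data), and 1 to 4 with 1 library left out. For the difference of the IAA effects between B8 and C64 it was 0, and 0 to 1 with 1 library left out. The fits with blocks changed no other count of subunit genes. The causes of these shifts were not tested.

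Of 648 values of single genes under alternatives, 572 kept their direction and side of the threshold, 58 moved, 14 came to pass it and 3 ceased to. The retinoic acid value of Polr1b ran from -0.90 to 0.022 with 1 library left out, and turned direction without control 1 of run 3. Scaling by total counts in place of TMM moved the median of all genes by 0.119 with heat shock in IAA-treated cells and by 0.115 with IAA in B8, and by less than 0.1 in the other comparisons. It left Polr1c and Polr3b called. Depth limits the shorter genes: in B8 22 of 28 could be tested with IAA, and Polr2k could not be tested in any comparison.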
